A study of Gallus gallus with 15 samples.

Results

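The colour of light given to eggs for the whole of incubation was examined by setting Green chicks, incubated under green monochromatic illumination (GMI), against White chicks, incubated under polychromatic white light. Both groups had light over the same period, so the comparison asks what the wavelength changed when the length of exposure did not. It rests on 7 of the 15 hypothalamus libraries of the series, 3 Green (replicates 2, 7 and 9) and 4 White (replicates 1, 3, 6 and 7), taken as the lighting labels give them. All came from male Ross 308 broiler chicks at day of hatch (DOH), and the lamps of both groups were set to an even intensity. The other 8 libraries were 4 G3D, from eggs under GMI in the last 3 days only, and 4 Control, from eggs kept in the dark. The labels of G3D do not state the sex. Each library was made from RNA of a hypothalamic hemisphere by bulk MARS-Seq, which reads the 3′ ends of transcripts of the whole tissue. The lamps stood over separate egg trays, and neither tray nor trial is given for a chick, so light and tray cannot be told apart.

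The hypothalamus joins the brain to the pituitary. Its neurons release peptides that restrain or stimulate growth hormone, prolactin and thyroid hormone, and other neurons of its arcuate region drive or suppress feeding. In birds, light reaches these circuits through the retina and through photoreceptors deep in the brain, and green light before hatch has been used in broilers to raise growth.

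Total counts were between 5898618 and 8205918 in Green and between 3944530 and 8077895 in White. The 100 most abundant genes took 43.0% to 45.6% of the counts in Green and 41.7% to 43.6% in White, and 12819 to 13461 genes were detected in Green and 12987 to 13764 in White. Levels are given as CPM, counts scaled to a common library total and by TMM, which corrects for differences in composition between libraries. Of the 10475 genes that passed the expression filter, only the 568 that the study's own gene table pairs with a symbol can be named. The study listed those 568 as differentially expressed genes (DEGs) against Control. They are a selected set, with a median log2 fold change between Green and White of -0.31, against -0.01 over all genes tested.

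Green differed from White in 23 genes at an adjusted p-value (padj) under 0.05 (edgeR, quasi-likelihood), 5 of them higher and 18 lower in Green. These are 0.0477% and 0.172% of the genes tested, 0.22% together. In all 23, the 3 Green libraries lay outside the range of the 4 White libraries, as they did in 13.1% of all genes tested (7.26% above White and 5.79% below). The higher genes differed by 1.47-fold to 2.61-fold and none has a symbol. The lower genes differed by 1.51-fold to 16.4-fold, and 8 of the 18 have a symbol. With no adjustment, 730 genes (6.97%) were higher and 742 (7.08%) lower at p under 0.05. An exact permutation test of 3 against 4 libraries cannot fall below 0.0571, the value for every one of the 23 genes. As the tissue was measured in bulk, fewer cells of a type and less RNA per cell cannot be told apart for any of them.

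XPOT, OSBPL2 and ZDHHC7 serve the movement of molecules between compartments or the lipid tagging of proteins. XPOT (ENSGALG00000009835) encodes exportin-t, which carries tRNA out of the nucleus. Its level was 7.44, 6.95 and 7.17 CPM in Green, against 15.9, 18.7, 22.4 and 19.9 CPM in White. The Green libraries were close together and the lowest White library was still more than double the highest of them. The log2 fold change was -1.42 (SE 0.26, padj 0.0278, edgeR).

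OSBPL2 (ENSGALG00000005195) encodes an oxysterol-binding protein relative that transfers lipids between membranes. It had 9.71, 11.7 and 6.83 CPM in Green, against 14.7, 37.0, 22.2 and 33.1 CPM in White, where replicate 1 was nearest to the Green libraries. The log2 fold change was -1.51 (SE 0.28, padj 0.0278, edgeR). ZDHHC7 (ENSGALG00000042522), a palmitoyltransferase that attaches fatty acid to proteins, had 1.26, 1.53 and 1.54 CPM in Green and 8.72, 10.4, 8.04 and 8.07 CPM in White. Its groups were far apart, with a log2 fold change of -2.60 (SE 0.49, padj 0.0278, edgeR). The Green levels rest on 10, 11 and 9 counts, so their closeness says little.

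VPS50 (ENSGALG00000009500) encodes a subunit of a tethering complex that returns cargo from endosomes. Its level was 16.6, 16.8 and 17.2 CPM in Green, against 29.7, 28.3, 38.5 and 35.2 CPM in White. The 3 Green libraries were nearly equal and the difference was the smallest of the named genes, at -0.96 on the log2 scale (SE 0.18, padj 0.0295, edgeR). WDR48 (ENSGALG00000006052), the partner that activates several ubiquitin-specific peptidases, had 0.631, 0.556 and 0.171 CPM in Green and 2.13, 11.1, 9.99 and 8.67 CPM in White. White replicate 1 stood well below the other White libraries, and the gene had the largest fitted difference of the 23, -4.04 (SE 0.80, padj 0.0430, edgeR). Its Green levels rest on only 5, 4 and 1 counts.

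A pair of the named genes act in mitochondria. PDP1 (ENSGALG00000034876) encodes the phosphatase that switches on pyruvate dehydrogenase, the entry of pyruvate into the citric acid cycle. It had 5.17, 10 and 6.49 CPM in Green, against 19.2, 24.6, 18.3 and 22.3 CPM in White (log2 fold change -1.55, SE 0.30, padj 0.0295, edgeR). SLC25A36 (ENSGALG00000005283) encodes a mitochondrial carrier of pyrimidine nucleotides. It had 5.80, 6.39 and 3.76 CPM in Green, against 12.4, 20.8, 11.4 and 15.4 CPM in White (log2 fold change -1.49, SE 0.30, padj 0.0372, edgeR). In both genes every White library was above every Green one, with the wider spread in White for SLC25A36.

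PCDH9 (ENSGALG00000016908), a protocadherin of the cell surface of neurons, completes the named genes. Its level was 3.41, 3.06 and 2.05 CPM in Green, against 5.62, 14.2, 23.6 and 14.6 CPM in White, and the White libraries differed among themselves more than the Green ones. The log2 fold change was -2.33 (SE 0.48, padj 0.0451, edgeR).

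**Figure D1:**
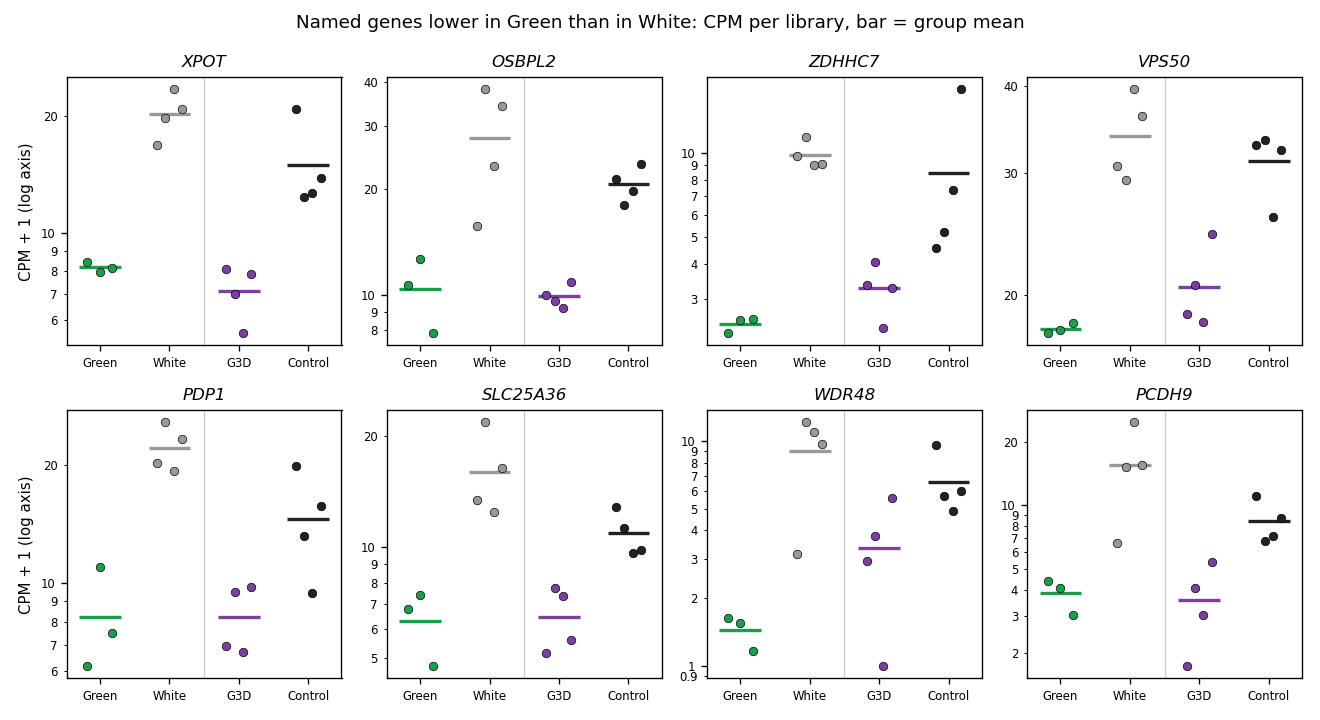
CPM plus 1 on a log axis for the 8 named genes lower in Green than in White at a padj under 0.05, with 1 point per library and a bar at the group mean, in Green, White, G3D and Control. The 3 Green points of XPOT lie between 6.95 and 7.44 CPM, below the White points at 15.9 to 22.4 CPM.

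Among the genes without a symbol, ENSGALG00000053766 had the smallest p of all genes tested. It had 149, 124 and 126 CPM in Green, against 61.6, 39.5, 64.6 and 40.0 CPM in White, and was 1.38 higher on the log2 scale (SE 0.18, padj 0.00221, edgeR). It is the gene that stayed past the threshold whichever of the 7 libraries was left out. ENSGALG00000027069 had 305, 214 and 298 CPM in Green, against 171, 165, 195 and 161 CPM in White (log2 fold change 0.66, SE 0.12, padj 0.0278, edgeR).

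In the lower direction, ENSGALG00000040532 had 69.4, 96.7 and 94.6 CPM in Green and 171, 183, 205 and 179 CPM in White. The difference was -1.09 (SE 0.16, padj 0.00686, edgeR) and stayed past the threshold in 6 of the 7 fits that leave out a library. The Control libraries had 90.9 to 114 CPM, a range that holds the upper 2 Green libraries and lies below every White one. ENSGALG00000042182 had 41.2, 44.5 and 32.4 CPM in Green, against 74.2, 63.8, 64.1 and 70.1 CPM in White (log2 fold change -0.79, SE 0.15, padj 0.0278, edgeR).

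The number of calls turned on single libraries. Leaving out White replicate 3 or White replicate 7 left 1 gene higher and 1 lower, and leaving out Green replicate 9 did the same. Leaving out Green replicate 2 left 2 genes higher and 1 lower, and leaving out Green replicate 7 left 4 and 9. Without White replicate 1 the counts were 11 higher and 29 lower, and without White replicate 6 they were 12 and 21. All 23 genes kept their direction in each of these fits. Scaling by library size alone gave 1 gene higher and 20 lower.

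Libraries outside the 7 compared allowed the 23 genes to be seen again, since G3D chicks had also had green light and Control chicks had not. All 15 libraries shared the fit, so G3D and Control had a part in the filter, scaling and estimate of spread behind the calls. With only the 7 Green and White libraries, 15 of the 23 genes were called. The counts below are therefore not independent of the choice of genes. G3D and Control differ in the length of exposure and in the presence of light, so this is another contrast and not a repeat. Of the 18 lower genes, 16 were also lower in G3D than in Control (51% of all genes tested), 14 of them at an unadjusted p under 0.05 (8.82% of all genes) and 2 at a padj under 0.05 (0.0668% of all genes), with a median log2 fold change of -0.79. Of the 5 higher genes, 4 were also higher (49% of all genes), 2 of them at an unadjusted p under 0.05 (6.81% of all genes) and 0 at a padj under 0.05 in edgeR's test (0.0286% of all genes). No gene of the 23 moved the opposite way at an unadjusted p under 0.05.

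The 2 lower genes with a padj under 0.05 in both comparisons have no symbol. ENSGALG00000042182 had 27.1, 28.6, 27.8 and 30.2 CPM in G3D, against 69.4, 72.2, 55.5 and 65.0 CPM in Control (log2 fold change -1.21, SE 0.14, padj 0.000242, edgeR). Green, at 32.4 to 44.5 CPM, was also under every Control library. Among the 8 named genes, XPOT had 7.11, 5.97, 4.55 and 6.88 CPM in G3D, against 19.8, 11.4, 11.7 and 12.9 CPM in Control (log2 fold change -1.18, padj 0.0633, edgeR). OSBPL2 was at 8.19 to 9.94 CPM in G3D and 16.9 to 22.5 CPM in Control, and ZDHHC7 at 1.36 to 3.05 CPM in G3D and 3.56 to 15.8 CPM in Control. These 8 have a symbol because the study listed them as DEGs against Control, so their values in G3D are no independent evidence. The 10 lower genes without a symbol were not chosen by that list but came from the shared fit. Of these 10, 8 were also lower in G3D than in Control, 7 of them at an unadjusted p under 0.05.

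**Figure D2:**
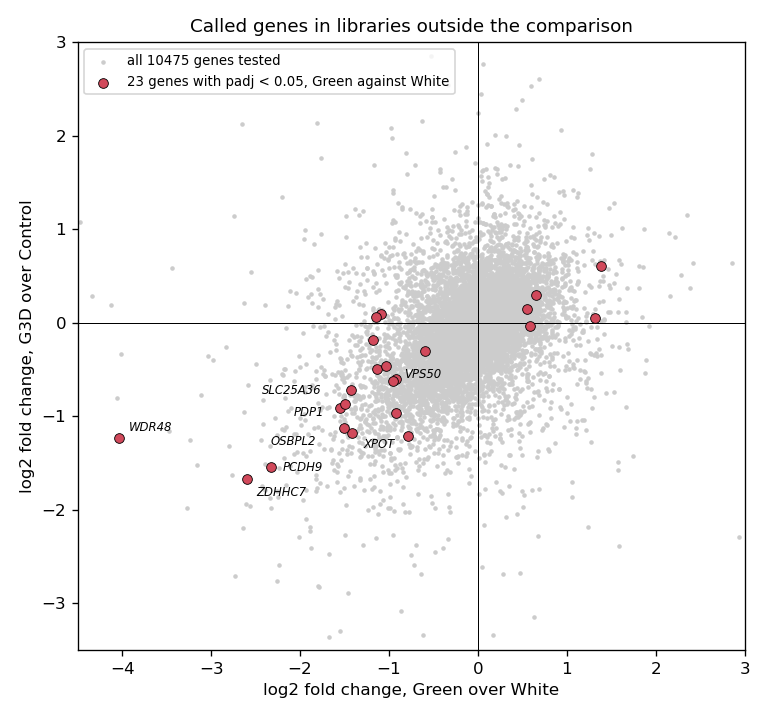
Log2 fold change of G3D over Control against that of Green over White for all 10475 genes tested (grey) and for the 23 genes past a padj of 0.05 between Green and White (red), with 12 genes outside the axes. Of the 18 red points on the left, 16 lie below 0 on the vertical axis, and 4 of the 5 on the right lie above it.

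Seen from the other side, 10 genes had a padj under 0.05 between G3D and Control in edgeR's test. The study, which used DESeq2, reported many more DEGs for this contrast. Of the 10, 8 differed in the same direction between Green and White, 5 of them at an unadjusted p under 0.05. Among all genes tested, the share above White in Green was 48.9% and the share below it 51.1%, or 6.97% and 7.08% at that p. HDAC11, a histone deacetylase, had 31.5, 37.0 and 15.4 CPM in Green, against 46.9, 83.2, 33.1 and 70.2 CPM in White, ranges that overlap (log2 fold change -1.06, unadjusted p 0.0017, padj 0.130, edgeR). COL1A2, a fibrillar collagen chain and a marker of meninges and fibroblasts, had 40.2, 62.5 and 36.0 CPM in Green, against 34.5, 33.5, 31.4 and 29.6 CPM in White (log2 fold change 0.52, padj 0.265, edgeR). Its groups did not overlap, and Green lay above every White library in 7.26% of all genes tested. Over the 10475 genes the log2 fold changes of the 2 comparisons, which share no library but share the fit, had a Pearson correlation of 0.393 and a Spearman correlation of 0.438, given as a description.

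The dark-incubated chicks give a further level for each of the 23 genes. For all 23 genes the mean of Control lay between the means of Green and White. It was nearer to White for 14 of the 18 lower and 3 of the 5 higher genes, and nearer to Green for 4 lower and 2 higher genes. Comparisons with Control share the Green or White libraries that chose the genes and were not tested. Choosing genes for a wide gap between Green and White by itself favours a Control mean inside that gap. The share over all genes was not counted.

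**Figure D3:**
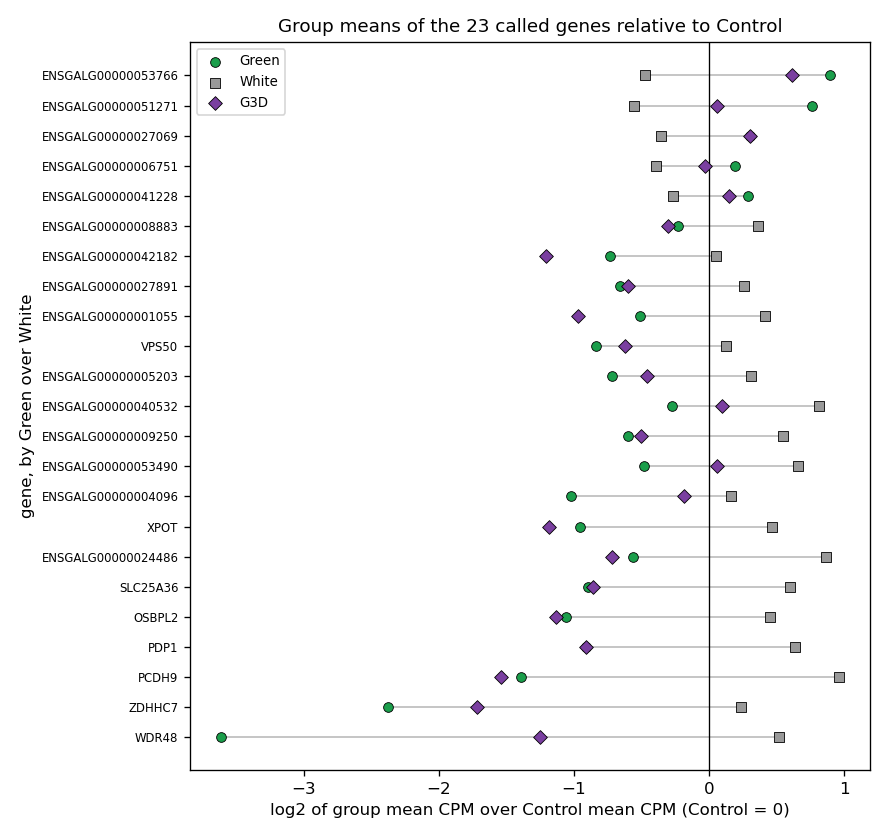
Log2 of the mean CPM of Green (circles), White (squares) and G3D (diamonds) over the mean CPM of Control for each of the 23 genes, ordered by the difference between Green and White. Control, at 0, lies between Green and White in every row, which the choice of genes by itself favours. G3D lies below 0 in 16 of the 18 lower genes.

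No named gene was higher in Green past the threshold, and the 5 named genes that follow by p, among those whose libraries do not overlap, had a padj between 0.0706 and 0.0943. AUP1, a lipid droplet protein that recruits a ubiquitin-conjugating enzyme, had 41.2, 36.0 and 40.1 CPM in Green, against 22.7, 21.4, 27.3 and 23 CPM in White (log2 fold change 0.73, SE 0.16, padj 0.0706, edgeR). PDE4C, a phosphodiesterase that breaks down cAMP, had 262, 205 and 255 CPM in Green, against 165, 153, 154 and 171 CPM in White (log2 fold change 0.58, padj 0.0788, edgeR). In Control PDE4C had 191 to 283 CPM, a range that holds every Green library and no White one. RPS19, of the small ribosomal subunit, was at 0.64 (padj 0.0928, edgeR), TIMM10, a chaperone of mitochondrial import, at 0.44 and PSMG3, a proteasome assembly factor, at 0.68 (padj 0.0943 for both, edgeR). PSMG3 was at 89.3 to 144 CPM in Green and 70.2 to 80.7 CPM in White, while Control had 116 to 133 CPM.

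None of the 14 measured genes that the study discusses by name passed the threshold between Green and White in the edgeR fit above. Only IGF2R among them passed it in another setting of the processing (1 of 11). In the edgeR fit, 2 of the 14 were higher and 3 lower at an unadjusted p under 0.05, beside 83 and 159 of the 568 genes with a symbol. Over all 10475 genes tested the counts were 730 and 742. The 14 are among those 568, which the study listed as DEGs against Control. The neuropeptides had the following levels. SST, somatostatin, which restrains growth hormone release, had 1007, 968 and 1010 CPM in Green, against 943, 769, 1021 and 678 CPM in White. The groups overlapped, with a log2 fold change of 0.22 and a 95% interval of -0.06 to 0.51 (padj 0.478, edgeR). VIP, which releases prolactin in birds, had 138, 148 and 123 CPM in Green and 129, 115, 116 and 98.0 CPM in White, with a log2 fold change of 0.25 and an interval of -0.09 to 0.59. PACAP, a relative of VIP, was at 171 to 199 CPM in Green and 132 to 208 CPM in White, with an interval of -0.19 to 0.51. All 3 intervals include 0.

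GAL, galanin, and AGRP, a peptide that drives feeding, were uneven between chicks of a group. GAL had 90.8, 104 and 91.2 CPM in Green, against 154, 14.1, 136 and 33.7 CPM in White. White replicates 1 and 6 lay above every Green library and White replicates 3 and 7 below, so the interval of the log2 fold change was wide, -1.36 to 1.74. AGRP had 0.505, 43.9 and 31.1 CPM in Green, against 33.3, 0.410, 10.5 and 0 CPM in White. The same pair of White chicks, replicates 1 and 6, held the higher AGRP levels. The 2 White libraries low in GAL and AGRP, replicates 3 and 7, had the larger totals of their group, 6731702 and 8077895 counts, and are among those without which most of the calls were lost. With counts thinned to the smallest library total, 3 genes were higher and 14 lower, 17 of them among the 23. Before scaling, White replicates 1, 3, 6 and 7 had 795, 103, 559 and 280 counts of GAL and 172, 3, 43 and 0 of AGRP. The part of depth in the GAL and AGRP levels and in the loss of calls without a library was not tested.

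**Figure D4:**
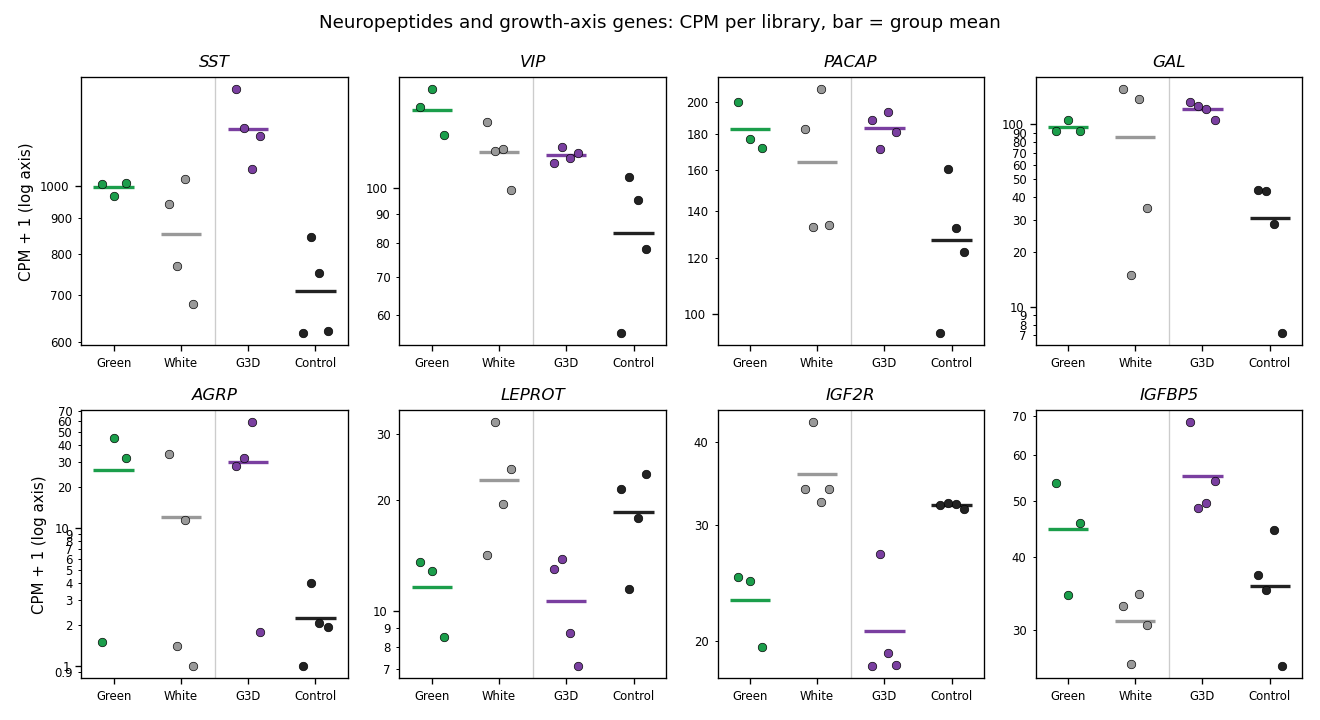
CPM plus 1 on a log axis for 8 genes that the study discusses, with 1 point per library and a bar at the group mean, in Green, White, G3D and Control. The Green and White libraries of IGF2R (18.6 to 24.0 CPM and 31.4 to 41.8 CPM) and LEPROT do not overlap, while those of SST, VIP, PACAP, GAL and AGRP do.

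IGF2R, LEPROT and IGFBP5 had smaller p-values than SST, VIP, PACAP, GAL and AGRP, without passing the adjusted threshold in the edgeR fit. IGF2R, a receptor that sorts lysosomal enzymes, had 24.0, 23.6 and 18.6 CPM in Green, against 33.0, 41.8, 31.4 and 33.0 CPM in White (log2 fold change -0.66, unadjusted p 0.00201, padj 0.138, edgeR). LEPROT, an endosomal protein that controls the leptin receptor at the cell surface, had 12.6, 11.8 and 7.51 CPM in Green, against 13.2, 31.3, 18.5 and 23.2 CPM in White (log2 fold change -1.02, padj 0.181, edgeR). IGFBP5, which binds insulin-like growth factors, had 52.7, 33.5 and 44.7 CPM in Green, against 32.0, 25.1, 33.6 and 29.6 CPM in White (log2 fold change 0.54, padj 0.230, edgeR). Its lowest Green library fell just under the highest White one. NFKBIB, an inhibitor of NF-kappa-B, was at 0.59 (padj 0.250, edgeR) and its groups did not overlap. For CAMK2A, LAMP2, APMAP and HPCAL1 the unadjusted p was over 0.05. ADAM10, a membrane protease, was at -0.91 (unadjusted p 0.0465, padj 0.346, edgeR).

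Groups of related genes could be followed only as far as symbols allow. Of 22 pathway lists, 11 had at least 3 measured members, and 66 of the 661 genes of these and the marker lists were measured under a symbol. A further 7 lists, of endosome sorting, the citric acid cycle, ubiquitin conjugation, Rab GTPases, MAP kinases, neuronal adhesion and cholesterol, were put together from the symbols themselves. At an unadjusted p under 0.05, 83 of the 568 genes with a symbol were higher and 159 lower in Green, and the lists are read beside those counts. The other lists, too, were chosen with earlier results of these data known, so their counts are no separate support. A list of palmitoylation, sterol transfer and nuclear transport had 4 measured members. XPOT, OSBPL2 and ZDHHC7 fell past a padj of 0.05, and ZDHHC17, another palmitoyltransferase, was at -0.62 (unadjusted p 0.0254, padj 0.288, edgeR).

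Of 5 measured genes of a list of lysosome, endosome and autophagy, 2 were lower and 0 higher at an unadjusted p under 0.05 in edgeR (0 past the adjusted threshold), with a median of -0.21, nearer to 0 than the -0.31 of all genes with a symbol. A list put together after the symbols had been seen held 11 genes that tether, sort or retrieve endosomal cargo. Of these, 7 were lower and 1 higher at an unadjusted p under 0.05, beside 159 and 83 of the 568 genes with a symbol. The median log2 fold change of the list was -0.60, and VPS50 passed a padj of 0.05. SNX25, a sorting nexin, had 8.83, 12.1 and 7.85 CPM in Green, against 15.7, 41.7, 28.0 and 28.9 CPM in White (log2 fold change -1.58, padj 0.129, edgeR). The exception was SNX21, another sorting nexin, at 121 to 139 CPM in Green and 94.0 to 107 CPM in White (log2 fold change 0.41, padj 0.138, edgeR). Of 4 genes of synaptic vesicles and endocytosis, 2 were lower at an unadjusted p under 0.05: SH3GL2, an endophilin, at -0.64 (padj 0.108, edgeR) and CLTC, the clathrin heavy chain, at -0.59 (padj 0.199, edgeR).

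Over the 568 genes with a symbol, 159 were lower and 83 higher at an unadjusted p under 0.05 in edgeR, with a median of -0.31. Genes of pyruvate oxidation and the citric acid cycle gave 3 lower and 0 higher of 9 at that p, with a median of -0.43. Besides PDP1 these were PDHX, a component of the pyruvate dehydrogenase complex, at -1.19 (padj 0.279, edgeR), and FH, fumarate hydratase, at -0.47 (padj 0.346, edgeR). Of 4 mitochondrially encoded genes, 2 were lower at an unadjusted p under 0.05. In 3 of the 4, Green lay below every White library, as in 94 of the 568 genes with a symbol and 5.79% of all genes. MT-ND4, a subunit of respiratory complex I, had 912, 946 and 852 CPM in Green, against 1717, 1501, 1162 and 1399 CPM in White (log2 fold change -0.68, padj 0.233, edgeR). MT-ND2, of the same complex, was at 47.3 to 49.0 CPM in Green and 62.6 to 125 CPM in White.

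Ubiquitin conjugation had 5 lower and 2 higher of 11 genes at an unadjusted p under 0.05. The same counts over the 568 genes with a symbol were 159 and 83. RAD23B, which carries ubiquitinated proteins to the proteasome, had 9.21, 8.89 and 9.05 CPM in Green, against 19.6, 32.0, 10.2 and 23.2 CPM in White (log2 fold change -1.24, padj 0.0831, edgeR). UBE2D3, a ubiquitin-conjugating enzyme, was at -0.79 (padj 0.0943, edgeR). STUB1, a ubiquitin ligase that works with chaperones, lay the other way at 0.40 (padj 0.145, edgeR), as did AUP1. Rab GTPases had 1 lower and 1 higher of 7 genes at an unadjusted p under 0.05, with a median of -0.40, and MAP kinase signalling 2 lower and 1 higher of 10, with a median of -0.29.

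Neuronal adhesion and guidance had 6 lower and 1 higher of 16 genes at an unadjusted p under 0.05, beside 159 and 83 of the 568 genes with a symbol. CNTN1, a contactin of axons, had 93.1, 83.1 and 64.5 CPM in Green, against 125, 197, 140 and 122 CPM in White (log2 fold change -0.86, padj 0.0746, edgeR). CHN1, which relays guidance signals in growing axons, was at -0.93 (padj 0.0928, edgeR) and EPHA7, an ephrin receptor, at -1.47 (padj 0.104, edgeR). SEMA3G, a secreted semaphorin, was the higher one, at 27.0 to 31.8 CPM in Green and 13.5 to 20.2 CPM in White. GAD67, the enzyme that makes GABA, had 72.0, 90.5 and 84.3 CPM in Green, against 114, 194, 126 and 146 CPM in White (log2 fold change -0.82, padj 0.157, edgeR).

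In a list of cytosolic ribosomal proteins, 9 of 12 measured members were higher in Green by sign alone, as were 75.2% of all genes over 500 CPM. RPS19, given above, is not on that list. Of 12 members, 6 were higher and 1 lower at an unadjusted p under 0.05 (83 and 159 of the 568 genes with a symbol). The median log2 fold change was 0.18 (0.087 with scaling by library size alone), and the 12 members ran from -1.795 to 0.32. In 5 members Green lay above every White library, as in 69 of the 568 genes with a symbol and 7.26% of all genes. RPS15 was at 649 to 738 CPM in Green and 484 to 615 CPM in White (log2 fold change 0.32, padj 0.179, edgeR). Reads of ribosomal protein genes can be shared with near-identical copies, which makes these levels uncertain. Of 5 genes that act on chromatin, 3 were higher at an unadjusted p under 0.05. DNMT3A, a DNA methyltransferase, at 0.47 and SIRT2, a deacetylase, at 0.40 were among them. HDAC11 was the lower one.

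Cholesterol genes, a list put together after the symbols had been seen, were split. Of 7 genes, 2 were higher and 2 lower at an unadjusted p under 0.05, with a median of -0.39. Over the 568 genes with a symbol these were 83 and 159, with a median of -0.31. SC5D, which acts late in cholesterol synthesis, had 283, 285 and 308 CPM in Green, against 240, 197, 235 and 211 CPM in White (log2 fold change 0.40, padj 0.137, edgeR). DHCR7 and MSMO1, also of cholesterol synthesis, were at -0.64 and -0.52 (padj 0.268 and 0.288, edgeR). For SC5D the Control libraries, at 268 to 313 CPM, lay above every White library, and G3D and Control differed by a log2 fold change of -0.00.

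Markers of cell types could be read for 6 of 14 lists, through 1 to 3 genes each. These genes have a symbol because the study listed them as DEGs against Control, so they are a selected set. The summed level of SNAP25, GAP43 and STMN2, of neurons, was 3851 to 4406 CPM in Green and 3573 to 4396 CPM in White. CRYM and VIM, of ependymal cells and tanycytes, summed to 329 to 410 CPM in Green and 279 to 383 CPM in White. AGRP and SST, of hypothalamic identity, summed to 1007 to 1041 CPM in Green and 678 to 1032 CPM in White. SST alone was at 968 to 1010 CPM in Green and 678 to 1021 CPM in White. ENPP2, of the choroid plexus, was at 165 to 197 CPM in Green and 145 to 326 CPM in White. COL1A2 (36.0 to 62.5 CPM in Green, 29.6 to 34.5 CPM in White) and EMX2, a marker of the telencephalon (30.1 to 37.9 CPM in Green, 19.7 to 28.1 CPM in White), did not overlap. Green lay above every White library in 69 of the 568 genes with a symbol and 7.26% of all genes. The padj of COL1A2 was 0.265 and that of EMX2 0.268 (edgeR), and each is the only measured gene of a list of 10. The part of these markers in the differences above was not tested.

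The direction of change moved with expression level. Among 3173 genes with a mean of up to 5 CPM the median log2 fold change was -0.16 and 40.4% were higher in Green, while among 278 genes over 500 CPM it was 0.14 and 75.2% were higher. Genes higher at an unadjusted p under 0.05 had a median level of 60.5 CPM and lower genes one of 12.1 CPM. The comparison of G3D with Control gave medians of -0.12 and 0.10 in the same 2 classes. The ribosomal proteins are among the abundant genes and most of the named lower genes are not, and the part of level in their values was not tested.

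**Figure D5:**
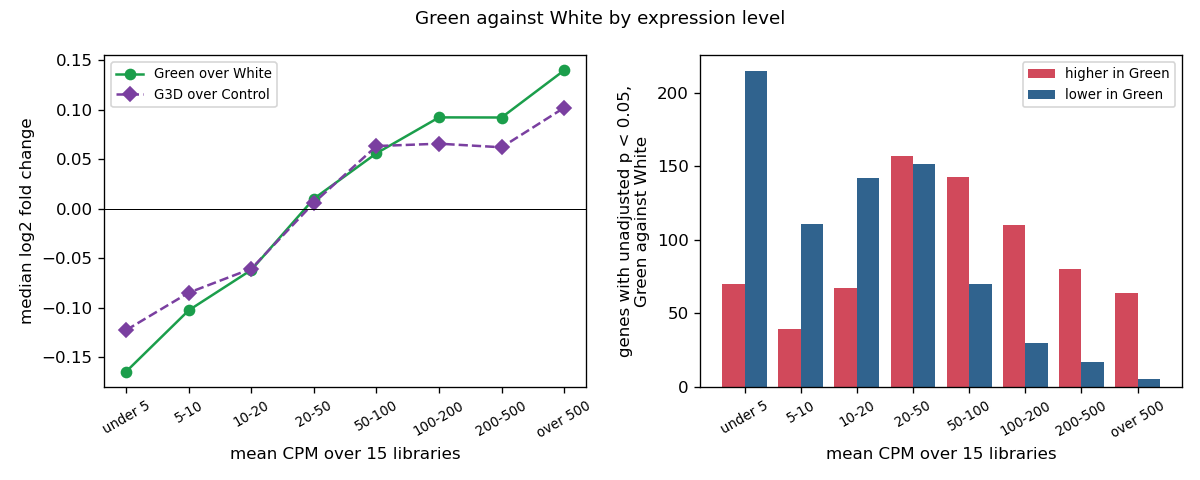
Left, median log2 fold change of Green over White (circles) and of G3D over Control (diamonds) in 8 classes of mean CPM over the 15 libraries. Right, number of genes higher (red) and lower (blue) in Green than in White at an unadjusted p under 0.05 in each class: lower genes prevail up to 20 CPM and higher genes above 50 CPM.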

How the data were processed

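Chick hypothalamus RNA was profiled by bulk MARS-Seq. According to the study's methods, the authors trimmed adapters with Cutadapt, mapped reads with STAR to the 3′ ends of genes of the GRCg6a build, flagged reads sharing gene and molecular identifier, and counted with HTSeq. They tested differential expression with DESeq2. Whether the deposited counts leave out the flagged reads is not given in the sources used here, so a count may be a molecule or a read. Deposited counts are unnormalized whole numbers, given for 24356 genes.

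Counts were fitted in R 4.3.3 with edgeR 4.0.16 (filterByExpr, TMM, robust quasi-likelihood) on all 15 libraries, with Benjamini-Hochberg adjustment over 10475 genes. No batch is given in the labels. Replicate pairs differed by more than counting error (chi-square per degree of freedom 11.7 to 23.3 over 9 pairs), so none was merged. Replicates are taken as separate chicks. DESeq2 1.42.0, voom in limma 3.58.1 and other scalings, filters and sets of samples were tried as alternatives. The code was tested on simulated data.

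Genes named were those past a padj of 0.05, the next by p among named genes without overlap (up to 10 per direction), genes the study discusses, and list members at an unadjusted p under 0.05 (up to 4 per list, beside its most abundant gene). Members and lists were chosen with earlier results of these data known, and 7 lists (cholesterol, citric acid cycle, endosome, Rab, ubiquitin conjugation, MAP kinase, adhesion) after the symbols had been seen. Symbols come from the study's gene table, whose fold changes and p-values were not used. Values of some list members are not reported here.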

Additional observations from a re-analysis of the deposited data

Results flagged for a closer look

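A library stood far from the other 3 of its group for 5 of the 185 gene and group pairs examined. That is no more than the share of about 1 in 20 that chance alone gives. The gap to the nearest library, as a share of the group's range, is given for each. In White, replicate 3 was highest for IGF2R (41.8 CPM, the others 31.4 to 33.0, gap 0.85) and for RAB21, a GTPase of early endosomes (71.5 CPM, the others 43.0 to 47.2, gap 0.854). White replicate 3 was also lowest for ENSGALG00000006751, a gene past the threshold in the higher direction (1096 CPM, the others 1295 to 1332, gap 0.843). White replicate 7 was lowest for SEMA3G (13.5 CPM, the others 19.1 to 20.2, gap 0.838). Control replicate 6 was lowest for VPS50 (24.9 CPM, the others 31.3 to 32.4, gap 0.858). For IGF2R, RAB21, ENSGALG00000006751 and SEMA3G the library that stands apart lies on the side away from the Green libraries. The Green and White libraries of these genes did not overlap, which by itself favours that side.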

How the results depend on the processing

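All 23 genes kept their direction in every setting in which they were tested, while their number changed. Against 5 higher and 18 lower genes, DESeq2 gave 81 and 120 (23 of the 23 among them), all genes with at least 1 count 27 and 40 (22), limma-voom 6 and 15 (19) and only the 7 Green and White libraries 7 and 16 (15). The number higher was 3 with DESeq2's size factors, 1 with library size alone (20 lower), 3 with at least 10 counts in every library, and, in 2 settings chosen after seeing the data, 3 with counts thinned to the smallest library and 2 with cyclic loess (16 of the 23 kept). Library size alone shifted the median of all genes to -0.10 and moved 7 list medians by more than the spread between Green libraries, among them that of the CREB and calcium list to -0.043, against 0.044 with TMM. Leaving out each library gave 1 to 12 higher and 1 to 29 lower genes. Of the 23, 2 passed a padj of 0.05 between G3D and Control, 10 with DESeq2, 1 with limma-voom and 1 to 7 with each library left out. The shares of all genes past that threshold in these other fits were not counted, so these numbers have no background to be read against. The fold change of CAMK2A turned to -0.0452 with library size alone. Leaving out a library, it turned sign for CAMK2A (-0.151 to 0.249), GAL (-0.170 to 0.670) and LAMP2 (-0.166 to 0.0996), and between G3D and Control for ENSGALG00000040532 (-0.0199 to 0.219), ENSGALG00000053490 (-0.0322 to 0.188), ENSGALG00000006751 (-0.112 to 0.0361) and ENSGALG00000051271 (-0.119 to 0.274). The cause was not tested. No paired analysis was possible because Green and White share only 1 replicate number (7). With 3 and 4 chicks, genes that vary between chicks, such as AGRP, had wide intervals, and genes of a few counts were poorly measured.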
